A study of Mus musculus with 24 samples.

Results

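Transcript levels of 8 keratin genes, Krt4, Krt13, Krt6a, Krt7, Krt8, Krt18, Krt19 and Krt23, were examined in epithelial cells sorted from the mouse trachea. The genes were chosen by name, as keratins of simple epithelia and of the cells above the basal layer, with earlier results of these data known. They are 8 of the 35855 genes in the files, and all 8 passed the filter on low counts, which kept 12211 genes. The 24 libraries fall into 3 groups of 8 that the labels call BCAM HI, BCAM LO and DIFFERENTIATED EPCS. BCAM, the basal cell adhesion molecule, is a laminin receptor on the cell surface, and by the series title the samples are subsets of basal epithelial cells. All mice were wild-type (WT) females without treatment, the title gives the strain as C57BL/6, and no group carried a transgene or a deletion. Age is not in the labels, and neither is what EPCS stands for. Each library was made from 1000 sorted cells with SmartSeq2 as used for pools of cells, and sequenced from both ends at 38 bases each. Replicates 1 to 5 of every group are batch 1 and replicates 6 to 8 are batch 2, and the labels do not say what a batch stands for. Nothing says that replicates came from separate animals, so p-values measure only the spread between these libraries.

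Keratins are the intermediate filament proteins of epithelial cells. A filament is built from type II and type I chains in equal parts, and cells tend to express them in pairs: Krt8 (type II) with Krt18 (type I) in simple, luminal epithelia, Krt5 with Krt14 in basal cells, and Krt4 with Krt13 in the suprabasal cells of internal stratified epithelia. In the trachea, Krt5 and Krt14 mark basal cells, Krt8 marks cells that have left the basal state, and Krt4 and Krt13 mark an intermediate and squamous population known as hillock cells.

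Libraries held 1824619 to 4440072 estimated counts. Levels below are in TPM, a transcript's share of its library after scaling to transcript length, while fold changes come from edgeR on counts with TMM factors. Bcam itself had a median of 268 TPM in BCAM HI (172 to 422), 171 in BCAM LO (91.1 to 210) and 73.6 in DIFFERENTIATED EPCS (32.5 to 359). The basal marker Krt5 had a median of 879 TPM in BCAM HI, 469 in BCAM LO and 0 in DIFFERENTIATED EPCS, where the secretory marker Scgb1a1 had a median of 146328 TPM. The last group also held transcripts of other tissues, with thyroglobulin (Tg) at 3161 to 26433 TPM. In BCAM HI and BCAM LO Tg had medians of 5.70 and 1.05 TPM and reached 383 and 57.2. Parathyroid hormone (Pth) reached 17185 TPM in DIFFERENTIATED EPCS, 24.9 in BCAM HI and 423 in BCAM LO. Erythrocyte genes summed to 4073 TPM in BCAM LO replicate 2, against a median of 7.03 in that group. Of 11 leukocyte genes, Ptprc stayed at or below 2.19 TPM in every library, but the sum ran from 196 to 514 TPM in BCAM HI, 535 to 1806 in BCAM LO and 999.5 to 13268 in DIFFERENTIATED EPCS. Lyz2, a lysozyme gene, held most of this in DIFFERENTIATED EPCS (983 to 13087.5 TPM), and the other 10 summed to 142 to 254, 126 to 330 and 16.1 to 181 TPM in the 3 groups. Replicates 6 and 7 of DIFFERENTIATED EPCS stood apart, with 24167 and 21151 TPM summed over 14 secretory genes against 158718 to 403407 in the other 6, and comparisons, batch differences, shares and correlations that use that group are also given without both where a call or value moved. In bulk samples, fewer cells of a type and less RNA per cell cannot be told apart.

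The genes lie in both keratin clusters of the mouse genome (GENCODE M21, build GRCm38; the submitters' processing notes name GRCm39, so these are not the coordinates of their index). The type II genes are on chromosome 15: Krt7 at 101411043 to 101430313 on the plus strand, and Krt6a at 101689910 to 101694307, Krt4 at 101918535 to 101924735 and Krt8 at 101996698 to 102004482, all on the minus strand. Krt18, a type I gene, is the neighbour of Krt8 on chromosome 15, at 102028180 to 102032027 on the plus strand. The other type I genes are on the minus strand of chromosome 11: Krt23 at 99477974 to 99493137, Krt13 at 100117327 to 100121566 and Krt19 at 100140810 to 100148665.

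Sequence upstream of the start was matched for 5 of the 8 genes (RefSeq, GRCm38.p6). It is shown for Krt13 and Krt23, the type I genes with the largest log2 fold changes between BCAM HI and BCAM LO, and for Krt18, whose change was smaller. Each is the part of the 250 bases before a RefSeq start that lies outside annotated exons, read 5′ to 3′ on the gene's strand. Capitals mark matches on either strand to TGANTCA, a pattern wider than the AP-1 site, which has C or G as its middle base. Krt13 has a second RefSeq start inside the gene.
Krt13, first start, chr11:100121567-100121816, minus strand: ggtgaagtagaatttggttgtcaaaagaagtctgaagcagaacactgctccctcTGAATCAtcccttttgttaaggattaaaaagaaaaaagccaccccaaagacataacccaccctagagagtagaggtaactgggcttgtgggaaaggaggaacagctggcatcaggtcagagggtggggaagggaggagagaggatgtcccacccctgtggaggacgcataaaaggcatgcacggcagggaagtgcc
Krt13, second start, chr11:100120578-100120827, minus strand: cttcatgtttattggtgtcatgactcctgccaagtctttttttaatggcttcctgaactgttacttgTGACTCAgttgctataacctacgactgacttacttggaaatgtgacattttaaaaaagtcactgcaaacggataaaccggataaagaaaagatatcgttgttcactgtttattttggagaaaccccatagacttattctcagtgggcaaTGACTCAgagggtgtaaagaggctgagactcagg
Krt23, chr11:99493138-99493370, minus strand: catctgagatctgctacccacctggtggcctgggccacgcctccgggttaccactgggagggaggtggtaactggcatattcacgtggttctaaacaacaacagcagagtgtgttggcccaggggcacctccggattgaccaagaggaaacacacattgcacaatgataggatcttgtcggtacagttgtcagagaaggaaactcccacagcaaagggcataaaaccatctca
Krt18, chr15:102027966-102028179, plus strand: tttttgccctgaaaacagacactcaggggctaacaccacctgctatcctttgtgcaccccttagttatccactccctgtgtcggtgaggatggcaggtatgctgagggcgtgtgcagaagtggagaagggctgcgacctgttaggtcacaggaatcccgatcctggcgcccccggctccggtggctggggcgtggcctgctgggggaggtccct
The first Krt13 window holds 1 match to TGANTCA and the second holds 2, while the windows of Krt23, Krt18, Krt7 and Krt8 hold none. The match in the first window is TGAATCA, with A in the middle and so not the AP-1 site itself, and both in the second are TGACTCA. Of 32851 promoter windows of the same length, 6.75% hold TGANTCA. The window of Krt7 holds 4 matches to GGGCGG, the GC box, which 32.7% of windows hold, and none of the 4 lies in the 39 bases of that window outside annotated exons. None of the windows has an exact match to TATAAA, a strict form of the TATA box (12.4% of windows), or to AACNGGTT, a site of grainyhead-like factors (1.79%). Looser forms of the TATA box were not searched, such as the cataaa near the end of the first Krt13 window and of the Krt23 window.

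Krt4, the type II keratin of suprabasal cells, was higher in BCAM LO than in both other groups, while its type I partner Krt13 was called higher in BCAM LO only against DIFFERENTIATED EPCS. Krt4 measured 143 TPM in the lowest, 202 in the median and 364 in the highest BCAM HI library, 289, 581 and 711 in BCAM LO, and 21.2, 166 and 216 in DIFFERENTIATED EPCS. The BCAM LO libraries lay above all DIFFERENTIATED EPCS libraries (as for 5.1% of all genes tested), and overlapped BCAM HI only through its replicate 8. On the count scale Krt4 was 2.66-fold lower in BCAM HI than in BCAM LO (log2 fold change -1.41, SE 0.35, adjusted p = 0.0174, edgeR's quasi-likelihood test with Benjamini-Hochberg adjustment over all genes tested), and lower in 8 of 8 same-numbered libraries. In batch 2 alone it was -0.85 and not called (adjusted p = 0.584, edgeR). In the same test it was 2.80-fold higher in BCAM LO than in DIFFERENTIATED EPCS (log2 fold change 1.49, SE 0.36, adjusted p = 0.00268). BCAM HI and DIFFERENTIATED EPCS had no called difference (log2 fold change 0.08, adjusted p = 0.891), and that value had opposite signs in the batches, -0.83 in batch 1 and 1.77 in batch 2.

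Krt13 was far lower than Krt4 in every group and more uneven. It measured 1.98, 19.9 and 45.1 TPM in the lowest, median and highest BCAM HI library, 8.03, 130 and 179 in BCAM LO, and 0, 4.16 and 27.3 in DIFFERENTIATED EPCS. The BCAM LO libraries fell into separate ranges by batch: the 5 of batch 1 averaged 152 TPM and the 3 of batch 2 averaged 14.04, below the BCAM HI median. Krt13 was 10.2-fold higher in BCAM LO than in DIFFERENTIATED EPCS (log2 fold change 3.34, SE 0.60, adjusted p = 1.64e-04 by edgeR's quasi-likelihood test), in 8 of 8 same-numbered libraries, and in batch 2 alone the 3.47 was not called (adjusted p = 0.124, edgeR). Its log2 fold change of -1.86 between BCAM HI and BCAM LO missed the threshold (SE 0.57, adjusted p = 0.0522, same test). The values of single batches were far apart: -2.92 in batch 1 alone (adjusted p = 9.86e-05) and 0.09 in batch 2 alone (adjusted p = 0.982). The test of a change between the batches was not called (3.02, SE 0.88, adjusted p = 0.127, edgeR's quasi-likelihood test). Leaving out BCAM HI replicate 8, the highest of its group, gave -2.60 (adjusted p = 2.49e-04).

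Krt6a, a type II keratin of suprabasal and wounded epithelium, was found in both BCAM groups and was at or near 0 in DIFFERENTIATED EPCS. It ranged from 1.39 to 42.7 TPM in BCAM HI, with a median of 7.88, and from 1.76 to 60.4 in BCAM LO, with a median of 26.1. In DIFFERENTIATED EPCS it ranged from 0 to 0.876 TPM, on 21 counts in all 8 libraries, and did not overlap either BCAM group. Of all genes tested, 14.2% had BCAM HI wholly above DIFFERENTIATED EPCS, and 5.1% BCAM LO. The fitted log2 fold change was 4.46 for BCAM HI (SE 0.88, adjusted p = 3.04e-04, edgeR's quasi-likelihood test) and 5.35 for BCAM LO (SE 0.86, adjusted p = 5.34e-05) over DIFFERENTIATED EPCS. Krt6a passed the filter on low counts only through the BCAM libraries: with only the 2 groups compared it failed the filter in both of these comparisons, and a difference there was bound to appear. In batch 2 alone the BCAM LO difference of 4.37 was not called (adjusted p = 0.0882, edgeR). BCAM HI and BCAM LO differed by -0.89 without passing the test (SE 0.60, adjusted p = 0.436). The near-identical gene Krt6b had 45 counts in all libraries against 2875 for Krt6a, and summing the pair before the fit changed no call.

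**Figure D1:**
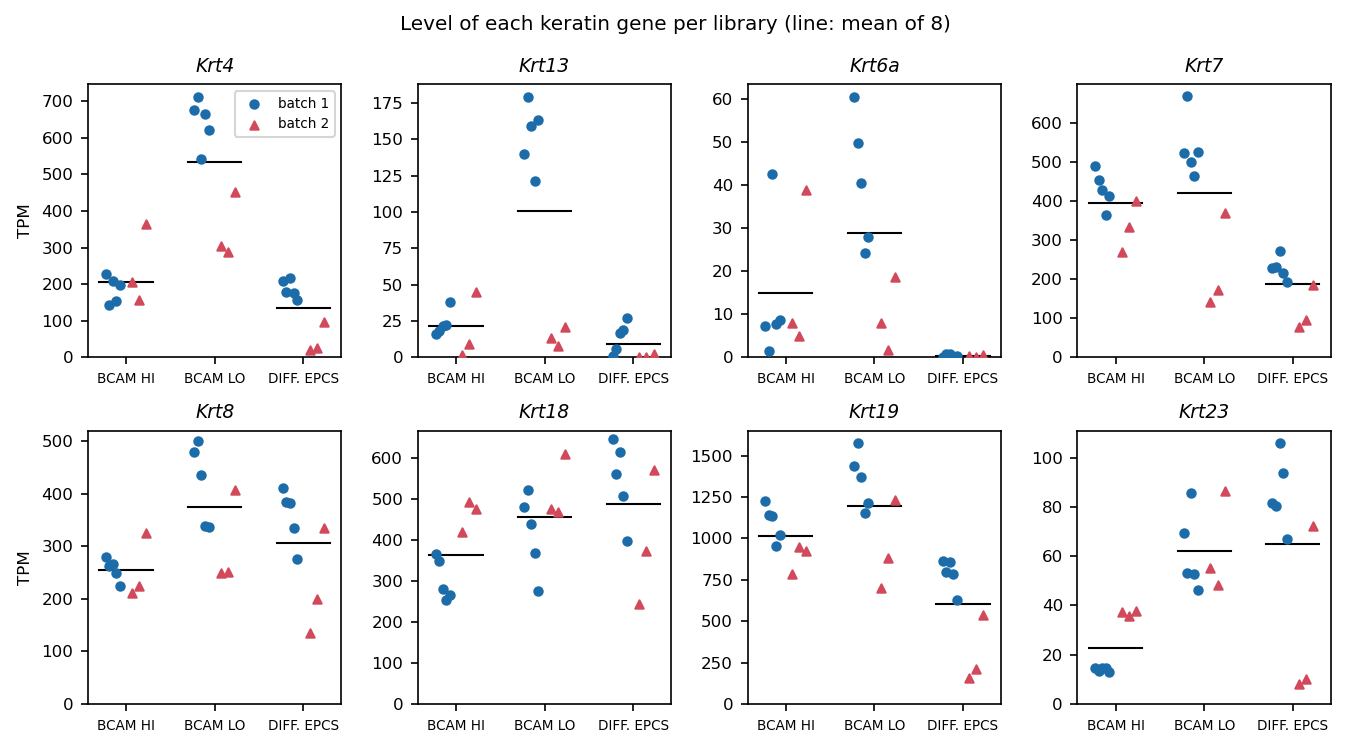
Level of each keratin gene in TPM (y axis, linear, from 0) in the 8 libraries of each group (x axis), with circles for batch 1, triangles for batch 2 and a line at the mean of 8. Krt4 in BCAM LO lies between 289 and 711 TPM, above all DIFFERENTIATED EPCS libraries, and Krt13 in BCAM LO is at 14.04 TPM on average in batch 2 against 152 in batch 1.

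Krt8 and Krt18, the keratin pair of simple epithelia, were present in all 24 libraries, basal groups included. Krt8 measured 210, 256 and 325 TPM in the lowest, median and highest BCAM HI library, 249, 372 and 501 in BCAM LO, and 135, 334 and 410 in DIFFERENTIATED EPCS. The 3 groups overlapped, and in DIFFERENTIATED EPCS replicates 6 and 7 lay at 135 and 199 TPM while the other 6 lay at 275 or above. Krt8 was 1.65-fold lower in BCAM HI than in BCAM LO (log2 fold change -0.72, SE 0.15, adjusted p = 0.00353, edgeR's quasi-likelihood test), in 8 of 8 same-numbered libraries. With limma on log2(TPM + 1) the difference was -0.52 and no longer called (adjusted p = 0.0569), nor was the -0.58 of batch 2 alone (adjusted p = 0.239, edgeR). Against DIFFERENTIATED EPCS it was 1.98-fold lower in BCAM HI (log2 fold change -0.98, SE 0.15, adjusted p = 6.58e-06), and the -0.26 of BCAM LO was not called (adjusted p = 0.187) and turned to 0.32 on the TPM scale.

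Krt18 measured 253, 356 and 492 TPM in the lowest, median and highest BCAM HI library, 276, 472 and 609 in BCAM LO, and 243, 533 and 645 in DIFFERENTIATED EPCS. All groups overlapped. It was 2.35-fold lower in BCAM HI (log2 fold change -1.23, SE 0.20, adjusted p = 1.68e-05, edgeR's quasi-likelihood test) and 1.59-fold lower in BCAM LO (log2 fold change -0.67, SE 0.20, adjusted p = 0.0104) than in DIFFERENTIATED EPCS, the latter not called with no filter on low counts (-0.61, adjusted p = 0.0546). Its log2 fold change of -0.56 between BCAM HI and BCAM LO did not pass (SE 0.19, adjusted p = 0.0805), although BCAM HI was lower in 8 of 8 same-numbered libraries. The lower values of this pair against DIFFERENTIATED EPCS depend on the scale: with limma on log2(TPM + 1) the log2 fold changes in BCAM HI were -0.20 for Krt8 (adjusted p = 0.317) and -0.41 for Krt18 (adjusted p = 0.0623). On that scale the median of all genes lay at 0.64 in this comparison, against 0.02 in the count fit, where calls split into 6812 higher and 901 lower in BCAM HI, against 2363 and 2681. On the same scale Krt4 (0.95), Krt13 (1.73) and Krt19 (0.96) were called higher in BCAM HI than in DIFFERENTIATED EPCS. In batch 2 alone neither gene was called between BCAM HI and DIFFERENTIATED EPCS (-0.42 for Krt8 and -0.36 for Krt18, adjusted p = 0.214 and 0.156, edgeR). Krt18 in BCAM LO had -0.08 on the TPM scale (adjusted p = 0.770), and in the count fit of batch 2 alone it had 0.18 (adjusted p = 0.579, edgeR).

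Krt7 and Krt19, further type II and type I keratins of simple epithelia, were both found in every library. Krt7 measured 269, 407 and 489 TPM in the lowest, median and highest BCAM HI library, 141, 482 and 668 in BCAM LO, and 77.7, 205 and 272 in DIFFERENTIATED EPCS. The BCAM groups did not differ by the test (log2 fold change -0.22, adjusted p = 0.394, edgeR's quasi-likelihood test), and on the TPM scale that value turned to 0.05. Krt7 was higher than in DIFFERENTIATED EPCS in both BCAM HI (log2 fold change 0.41, SE 0.14, adjusted p = 0.0165) and BCAM LO (0.63, SE 0.14, adjusted p = 6.69e-04). The first of these calls was lost without BCAM HI replicate 8 (0.32, adjusted p = 0.0607), and without DIFFERENTIATED EPCS replicates 6 and 7 (0.28, adjusted p = 0.104). With no batch term neither was called (0.31 and 0.64, adjusted p = 0.392 and 0.0808), and in single batches the first was lost in batch 1 (0.15, adjusted p = 0.294) and the second in batch 2 (0.59, adjusted p = 0.106).

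Krt19, which lacks most of the tail domain other keratins have, had the highest mean TPM of the 8 genes in each group when all its transcripts were summed. With coding transcripts only, its mean of 491 TPM in BCAM LO lay below the 533 of Krt4, and its 226 in DIFFERENTIATED EPCS below the 488 of Krt18 and the 307 of Krt8. It measured 787, 987 and 1227 TPM in the lowest, median and highest BCAM HI library, 701, 1222 and 1578 in BCAM LO, and 154, 706 and 866 in DIFFERENTIATED EPCS. The order BCAM LO, BCAM HI, DIFFERENTIATED EPCS held for the mean TPM, 1196, 1017 and 604, but neighbours in it overlapped. That order did not hold on the count scale. Krt19 CPM, counts scaled to the library total with TMM factors, averaged 1211 in BCAM LO, 889 in BCAM HI and 916 in DIFFERENTIATED EPCS. In edgeR's quasi-likelihood test Krt19 was higher in BCAM LO than in DIFFERENTIATED EPCS (log2 fold change 0.58, SE 0.22, adjusted p = 0.0457), a call lost when any of 10 of the 24 libraries was left out, with no batch term (0.40, adjusted p = 0.314), with no filter (0.64, adjusted p = 0.0699), with DESeq2 size factors (0.56, adjusted p = 0.0541) and with the replicate number as a block. That value was 0.07 in batch 1 alone (adjusted p = 0.633) and 1.62 in batch 2 alone. The same test called no difference of BCAM HI from BCAM LO (-0.45, adjusted p = 0.238) or from DIFFERENTIATED EPCS (0.13, adjusted p = 0.675). Krt19 was, however, lower in BCAM HI than in BCAM LO in 8 of 8 same-numbered libraries. That difference gained a call in 3 of 12 other settings, and stayed uncalled in all 24 settings with a single library left out.

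Krt23, a type I keratin, was low in BCAM HI. It measured 13.0, 14.7 and 37.7 TPM in the lowest, median and highest BCAM HI library, 46.2, 54.1 and 86.5 in BCAM LO, and 8.01, 76.2 and 106 in DIFFERENTIATED EPCS. All BCAM HI libraries lay below all BCAM LO libraries, and no other of the 8 genes separated those groups. Of all genes tested, 0.336% had ranges that did not overlap with BCAM HI below BCAM LO. Krt23 was 3.26-fold lower in BCAM HI than in BCAM LO (log2 fold change -1.70, SE 0.45, adjusted p = 0.0226, edgeR's quasi-likelihood test), a call lost without BCAM HI replicate 1 (-1.62, adjusted p = 0.0507), with no filter on low counts (-1.67, adjusted p = 0.0565) and in batch 2 alone (-1.12, adjusted p = 0.552). Krt23 also lost this call with the replicate number as a block. It was 5.08-fold lower in BCAM HI than in DIFFERENTIATED EPCS (log2 fold change -2.34, SE 0.48, adjusted p = 4.02e-04), and the -0.64 of BCAM LO against that group was not called (adjusted p = 0.276) and turned to 0.32 on the TPM scale. In batch 2 alone the difference between BCAM HI and DIFFERENTIATED EPCS was -0.24 and not called (adjusted p = 0.848). The libraries of DIFFERENTIATED EPCS divided again, with replicates 6 and 7 at 8.01 and 10.1 TPM, below every BCAM HI library, and the other 6 at 66.9 or above.

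Counted together, 3 of the 8 keratins were called between BCAM HI and BCAM LO, all lower in BCAM HI, where 7.02% of all genes tested were called and 4.59% were called lower in BCAM HI. The median log2 fold change of the 8 was -0.81, beside 8.78e-05 for all genes tested. These are Krt4, Krt8 and Krt23, and the other 5 had negative values that did not pass. Between BCAM HI and DIFFERENTIATED EPCS, 5 of 8 were called, where 41.3% of all genes were: Krt6a and Krt7 were higher in BCAM HI (19.4% of all genes) and Krt8, Krt18 and Krt23 lower (22%). Between BCAM LO and DIFFERENTIATED EPCS, 6 of 8 were called, where 33.5% of all genes were: Krt4, Krt13, Krt6a, Krt7 and Krt19 were higher in BCAM LO (16.3% of all genes) and Krt18 lower (17.1%). Krt6a counts in both comparisons with DIFFERENTIATED EPCS, although it passed the filter on low counts there only through the BCAM libraries. The 8 genes were chosen with earlier results of these data known, so these counts are descriptions. The comparisons share libraries, so they are not independent of each other. On log2(TPM + 1) with limma the median of all genes lay at 0.23 for BCAM HI against BCAM LO and at 0.40 for BCAM LO against DIFFERENTIATED EPCS. The genes called on that scale were 820 higher and 228 lower in the first of these (297 and 560 in the count fit) and 4210 higher and 652 lower in the second (1996 and 2090).

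**Figure D2:**
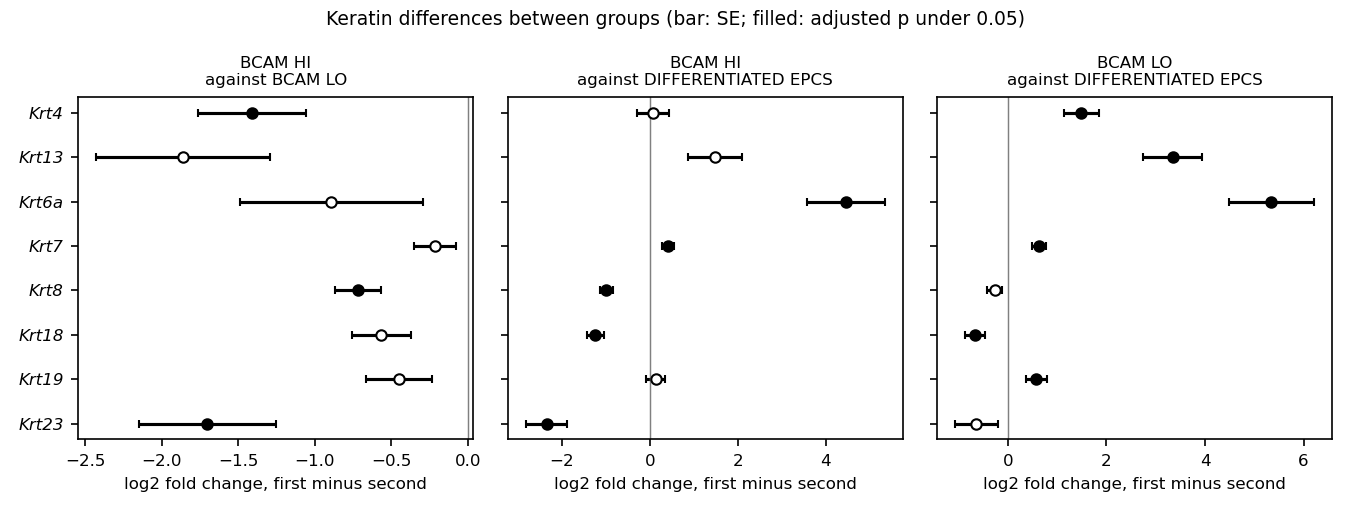
Log2 fold change of each keratin gene (x axis, first group minus second, from edgeR on counts) in the 3 comparisons, with bars for the standard error and filled points for an adjusted p under 0.05. All 8 values lie below 0 for BCAM HI against BCAM LO on this scale, 3 of them filled, and the value of Krt7 turns to 0.05 on the TPM scale.

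The count between BCAM HI and BCAM LO moved with the libraries used. It was 7 of 8 in batch 1 alone, where 5.69% of all genes were called, and 0 of 8 in batch 2 alone, where 4.38% were, with 3 libraries a group, where edgeR gave 2 of the 8 an unadjusted p under 0.05. It was 5 of 8 without DIFFERENTIATED EPCS replicate 6 (7.27% of all genes) or without replicate 7 (7.88%), and 6 of 8 without both (9.56%), although neither is in the groups compared. Without both, the counts against DIFFERENTIATED EPCS were 4 of 8 for BCAM HI (40.5% of all genes), where Krt7 was lost, and 7 of 8 for BCAM LO (33.8%), where Krt19 was lost (0.23) and Krt8 (-0.47) and Krt23 (-1.14) were added as lower. Both of these counts again include Krt6a. Krt13, Krt18 and Krt19 were the genes added between BCAM HI and BCAM LO, with log2 fold changes of -1.96, -0.56 and -0.45 (adjusted p = 0.0280, 0.00574 and 0.00376, edgeR's quasi-likelihood test).

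The batches differed within groups, most in DIFFERENTIATED EPCS. There, 7 of the 8 keratins were lower in batch 2 than in batch 1 (all except Krt6a), where 10.2% of all genes were called lower and 20.1% called in either direction. The log2 fold changes of the 7 ran from -0.92 for Krt18 to -3.44 for Krt13, with -2.42 for Krt4, -1.95 for Krt19 and -2.004 for Krt23. Without replicates 6 and 7, which leaves replicate 8 as the only batch 2 library of that group, assumed to vary like the others, 3 of 8 were called, Krt4 (-1.47), Krt7 (-0.84) and Krt19 (-1.25), beside 3.66% of all genes. In BCAM LO only Krt13 (-3.44, adjusted p = 0.00240) and Krt7 (-1.30, adjusted p = 5.19e-06) were called, both lower in batch 2, where 11.1% of all genes were called and 4.66% lower, and in BCAM HI only Krt7 (-0.58, adjusted p = 0.0326), where 8.04% were called and 3.11% lower, all by edgeR's quasi-likelihood test. Secretory markers moved with this: the 14 genes summed to 350541 TPM on average in batch 1 and 68012 in batch 2 of DIFFERENTIATED EPCS, while the 11 thyroid genes had 4461 and 19542 TPM (3401 to 28475 over the group). No gene of either list was at 0 in that group, and the part of these cells in the keratin values was not tested.

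**Figure D3:**
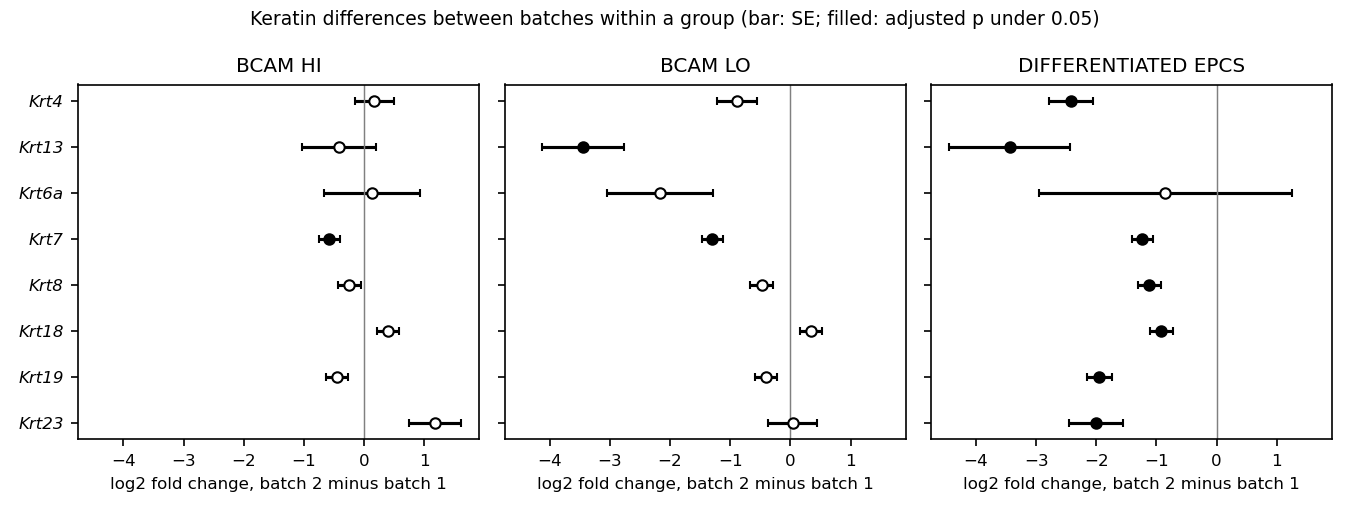
Log2 fold change of each keratin gene between the batches of a group (x axis, batch 2 minus batch 1, from edgeR on counts), with bars for the standard error and filled points for an adjusted p under 0.05. In DIFFERENTIATED EPCS 7 of 8 points are filled and negative, against 2 in BCAM LO and 1 in BCAM HI.

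A test of whether a group difference itself changed between the batches called none of the 8 keratins for BCAM HI against BCAM LO by edgeR's quasi-likelihood test, where 1.06% of all genes were called, and 3 of the 8 had an unadjusted p under 0.05. For BCAM HI against DIFFERENTIATED EPCS it called Krt4, Krt8, Krt18, Krt19 and Krt23 (5 of 8, beside 8.69% of all genes), and for BCAM LO against DIFFERENTIATED EPCS it called Krt4, Krt18, Krt19 and Krt23 (4 of 8, beside 11.4%). In each of these the BCAM group stood higher relative to DIFFERENTIATED EPCS in batch 2. Without DIFFERENTIATED EPCS replicates 6 and 7 the calls were Krt4 (1.64), Krt19 (0.80) and Krt23 (1.996) for BCAM HI, beside 2.56% of all genes, and Krt19 (0.84) for BCAM LO, beside 2.7%. Both comparisons share the DIFFERENTIATED EPCS libraries. For BCAM HI against BCAM LO, the fit without replicates 6 and 7 called the changes of Krt4 (1.06) and Krt23 (1.15). Over all libraries these changes were of nearly the same size (1.05 and 1.15) but were not called.

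The 8 genes made up a different part of all keratin transcripts in each group. Summed over 28 type I and 26 type II genes, keratin transcripts came to 6713 ± 1049 TPM in BCAM HI, 6584 ± 1164 in BCAM LO and 2563 ± 1089 in DIFFERENTIATED EPCS (mean ± SD, n = 8). The 8 genes held 34.7% ± 5.00 of that sum in BCAM HI, 47.7% ± 5.97 in BCAM LO and 72.5% ± 7.28 in DIFFERENTIATED EPCS. Without replicates 6 and 7 the last was 68.8% ± 2.49 (n = 6, 65.8% to 72.7%), with a keratin sum of 3110 ± 465 TPM. The basal keratins Krt5, Krt14, Krt15 and Krt17 held 64.7%, 51.7% and 26.7% (30.7% without both). In DIFFERENTIATED EPCS nearly all of the basal share was Krt15, at 751 ± 410 TPM, since Krt5 did not exceed 1.05 TPM and Krt14 did not exceed 0.375. Krt18 held 5.34% of keratin TPM in BCAM HI, 7.06% in BCAM LO and 21.6% in DIFFERENTIATED EPCS (17.8% without both), and Krt19 held 15.6%, 18.0% and 22.8%. The ratio of summed type II to summed type I TPM was 0.370 ± 0.027, 0.380 ± 0.084 and 0.352 ± 0.058, within the spread of each other. These sums and shares are descriptions with no test. TPM have an equal total in every library, so a keratin sum also depends on how much of the library other transcripts take. In DIFFERENTIATED EPCS the 14 secretory genes summed to 21151 to 403407 TPM.

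**Figure D4:**
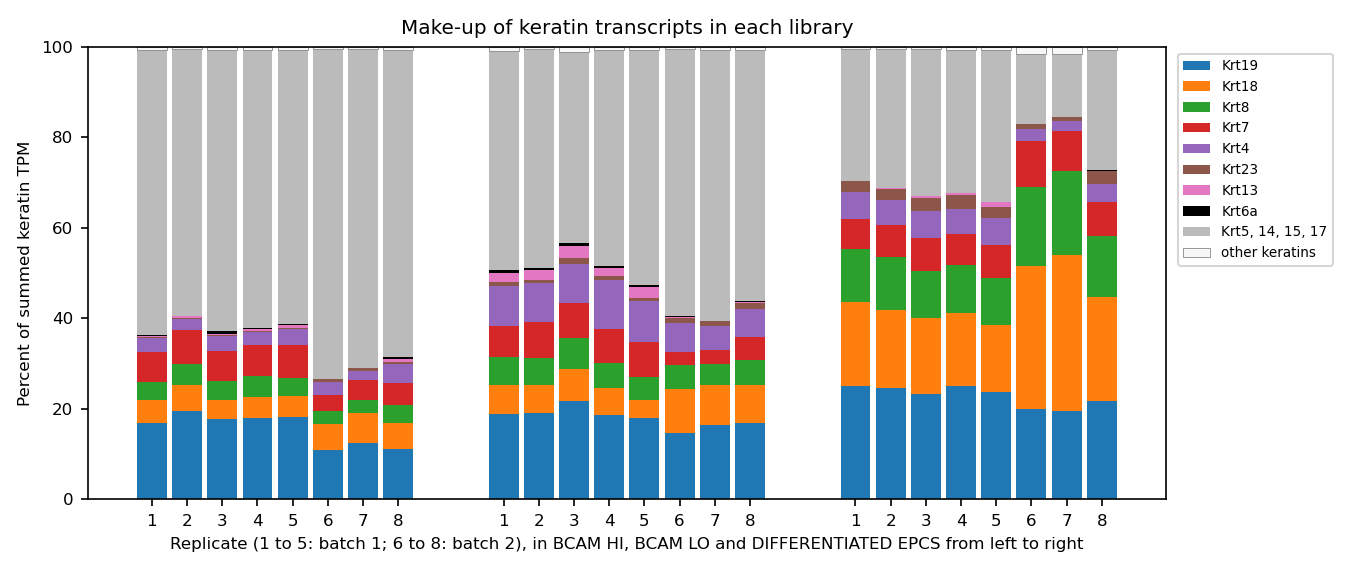
Percent of summed keratin TPM (y axis) held by each of the 8 genes, by Krt5, Krt14, Krt15 and Krt17 together, and by other keratins, in each of the 24 libraries (x axis, by replicate within group). The 8 genes hold 34.7% on average in BCAM HI, 47.7% in BCAM LO and 72.5% in DIFFERENTIATED EPCS.

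The scaling of a library cancels in the ratio of a type II to a type I gene within it, apart from the pseudocount. Ratios were tested on log2 of (TPM + 1) ratios by an exact two-sided permutation test with labels permuted within batch, over 9 tests with Benjamini-Hochberg adjustment. Krt8 to Krt18 was 0.742 in BCAM HI, 0.851 in BCAM LO and 0.622 in DIFFERENTIATED EPCS on average. Only its difference between BCAM LO and DIFFERENTIATED EPCS passed (log2 difference 0.40, exact permutation adjusted p = 0.0357), and the ranges overlapped. Within batch 1 Krt8 to Krt18 averaged 1.02 in BCAM LO and 0.659 in DIFFERENTIATED EPCS. In batch 2 the ratios were 0.575 and 0.559, and 3 libraries against 3 cannot give an exact p under 0.1. The call was lost when any of 8 single libraries was left out (replicates 1 to 5 of BCAM LO and 6 to 8 of DIFFERENTIATED EPCS), with values of 0.32 to 0.39, and without DIFFERENTIATED EPCS replicates 6 and 7 together (0.34, exact permutation adjusted p = 0.204). It was also lost with the replicate number as a block.

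Krt4 to Krt13 was the most variable ratio, with a median of 8.79 in BCAM HI, 5.17 in BCAM LO and 30.2 in 7 libraries of DIFFERENTIATED EPCS, since replicate 7 had no Krt13. BCAM LO and DIFFERENTIATED EPCS differed by -1.25 on the log2 scale without passing (exact permutation adjusted p = 0.0643). In batch 1 alone they differed by -2.02 (exact permutation adjusted p = 0.0143), and in batch 2 alone by 0.03. Krt7 to Krt19 was 0.386, 0.336 and 0.345 on average in BCAM HI, BCAM LO and DIFFERENTIATED EPCS, and none of its differences passed over both batches, although BCAM HI and DIFFERENTIATED EPCS differed by 0.36 without DIFFERENTIATED EPCS replicates 6 and 7 (exact permutation adjusted p = 0.0179). Within batch 1 it was lower in DIFFERENTIATED EPCS, at 0.291 on average, than in BCAM HI (0.392) and BCAM LO (0.398), with log2 differences of 0.43 and 0.45 (exact permutation adjusted p = 0.0143 for both). In batch 2 the order turned, with 0.434 in DIFFERENTIATED EPCS, 0.376 in BCAM HI and 0.233 in BCAM LO.

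**Figure D5:**
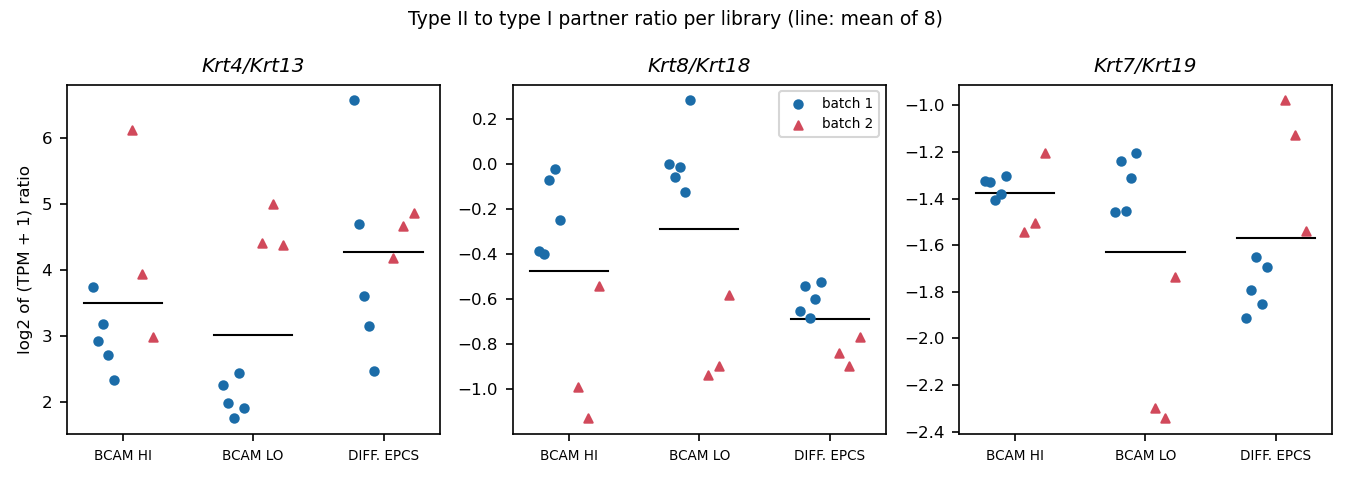
Log2 of the (TPM + 1) ratio of a type II to a type I keratin (y axis) for the pairs Krt4 to Krt13, Krt8 to Krt18 and Krt7 to Krt19 in the 8 libraries of each group, with circles for batch 1, triangles for batch 2 and a line at the mean of 8. The Krt8 to Krt18 ratio averages -0.29 in BCAM LO and -0.69 in DIFFERENTIATED EPCS, with batch 2 low in every group.

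Within groups, after batch means were subtracted, partner genes varied together in part. Krt7 and Krt19 gave Pearson r of 0.86 in BCAM HI, 0.92 in BCAM LO and 0.98 in DIFFERENTIATED EPCS (n = 8 each, exact permutation adjusted p = 0.0150 for each over 9 relations). Spearman's rho was 0.86, 0.81 and 0.93, with exact permutation adjusted p of 0.0281, 0.0825 and 0.0281, and r without the 2 libraries farthest from the median was 0.93, 0.75 and 0.87. Krt8 and Krt18 gave r of 0.86 in BCAM LO and 0.99 in DIFFERENTIATED EPCS (exact permutation adjusted p = 0.0125 for both; rho 0.95 and 0.98, adjusted p = 0.0281 for both; r without the 2 farthest 0.84 and 0.98). In BCAM HI the r of 0.44 did not pass (exact permutation adjusted p = 0.260; rho 0.52, adjusted p = 0.208; r without the 2 farthest 0.53). Krt4 and Krt13 gave r of 0.56, 0.67 and 0.28, none of which passed (exact permutation adjusted p = 0.461, 0.411 and 0.461; rho 0.31, 0.52 and 0.14, adjusted p = 0.706, 0.371 and 0.781). Without the 2 farthest libraries these were 0.22, 0.56 and -0.13. Without replicates 6 and 7 (n = 6), the r of Krt8 with Krt18 in DIFFERENTIATED EPCS was 0.98 (exact permutation adjusted p = 0.0375), that of Krt7 with Krt19 was 0.83 and no longer passed (exact permutation adjusted p = 0.260), and that of Krt4 with Krt13 was -0.53. The points of a correlation share their library's scaling.

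Between the genes, likeness over the 24 libraries was measured as Pearson's r of log2 CPM (counts scaled to the library total) after the mean of each group and batch was subtracted, and is a description. Krt19 and Krt23 were the most alike of the 28 pairs (0.92), followed by Krt4 with Krt19 (0.82) and Krt8 with Krt18 (0.81), and Krt13 with Krt18 was the least (0.03). Among 9037 other genes, those most like Krt19 were Wfdc2 (0.98), Gsto1 (0.96) and Tmem176a (0.94), and those most like Krt23 were Wnt7b (0.93), Wfdc2 (0.92) and Lrrc26 (0.92). Krt4 was most like Gsto1 (0.89), Anxa8 (0.88) and Lgals3 (0.88), and Krt8 was most like Hsp90aa1 (0.92), Sult1b1 (0.89) and Dazap2 (0.88). For Krt18 these were Prdx1, Gsta3 and Eef1d (0.81 to 0.82), and for Krt7 Fam49b, Rack1 and Rab8a (0.83 to 0.87). The values were lower for Krt13 (Sec63, Pam and Smad5, 0.73 to 0.79) and Krt6a (Ctcf, Fh1 and Pygo2, 0.70 to 0.76). Much of this order rested on DIFFERENTIATED EPCS replicates 6 and 7. Over the other 22 libraries Krt8 with Krt19 was the most alike pair (0.83), and Krt19 with Krt23 fell to 0.61. Among other genes Wfdc2 stayed the first for Krt19 (0.88) and Hsp90aa1 for Krt8 (0.90), while Wnt7b with Krt23 was at 0.69 and Gsto1 with Krt4 at 0.72.

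The transcripts behind the genes differed in kind. Krt4, Krt8, Krt18 and Krt23 each have a single transcript in the files, which codes for protein. Of Krt19 TPM, 58.8% in BCAM HI, 57.7% in BCAM LO and 63.7% in DIFFERENTIATED EPCS were assigned to Krt19-203, a transcript of 823 bases that is annotated as not coding. Coding Krt19 transcript alone measured 412 ± 38.8, 491 ± 70.4 and 226 ± 117 TPM (SD, n = 8). Of Krt7 TPM, 36.5%, 39.9% and 35.7% were assigned to Krt7-202, which retains an intron, and coding Krt7 alone measured 233 ± 46.2, 242 ± 110 and 115 ± 44.4 TPM. With coding transcripts only, Krt7 to Krt19 kept no called difference, and Krt4 to Krt13 between BCAM LO and DIFFERENTIATED EPCS was called (log2 difference -1.49, exact permutation adjusted p = 0.0393).

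Genes of the same cell layer were listed with the keratins, also with earlier results of these data known, so their counts are descriptions. Of 18 suprabasal and hillock genes, 9 were called lower and 0 higher in BCAM HI than in BCAM LO, with a median log2 fold change of -0.85, beside 4.59% of all genes called lower. The largest were Ly6g6c (-4.85, SE 0.49), Serpinb2, a protease inhibitor (-4.62, SE 0.49) and Plac8 (-4.52, SE 0.34). Against DIFFERENTIATED EPCS, 6 were higher and 7 lower in BCAM HI (19.4% and 22% of all genes), and 10 were higher and 1 lower in BCAM LO (16.3% and 17.1%). The largest were Dapl1 at 6.98 and 6.47 and Aqp3, a water and glycerol channel, at 4.55 and 4.11. Next in size was Plac8 for BCAM HI, which was lower there (-4.37, SE 0.34), and Sprr2a3 for BCAM LO (3.85, SE 0.46). Dapl1 and Sprr2a3 had only 17 and 49 counts over DIFFERENTIATED EPCS, and Plac8 had 61 over BCAM HI. The size of these differences thus rests on few counts in the lower group. The median log2 fold changes against DIFFERENTIATED EPCS were -0.32 for BCAM HI and 0.73 for BCAM LO. Without DIFFERENTIATED EPCS replicates 6 and 7 the counts, higher and lower in the first group, were 2 and 11, 5 and 10, and 10 and 3 in the 3 comparisons. The squamous genes Krt78, Sprr3 and Rptn did not exceed 2.10 TPM in any library.

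Of 12 genes for proteins that bind or anchor keratin filaments, 1 was higher and 3 were lower in BCAM HI than in BCAM LO, with a median log2 fold change of 0.07, where 7.02% of all genes were called. These were the plakophilin Pkp3 (0.47, SE 0.12, adjusted p = 0.0147), and Evpl, an envelope plakin (-1.08, SE 0.30, adjusted p = 0.0299), the plakophilin Pkp2 (-0.87, SE 0.22, adjusted p = 0.0140) and Ppl, by edgeR's quasi-likelihood test. Against DIFFERENTIATED EPCS, 8 were higher and 1 was lower in each BCAM group, where 41.3% of all genes were called for BCAM HI and 33.5% for BCAM LO. The counts for BCAM HI against BCAM LO were 3 higher and 3 lower when DIFFERENTIATED EPCS replicates 6 and 7 were left out. Those for BCAM LO against DIFFERENTIATED EPCS were then 7 higher and 1 lower. Pkp1, a desmosomal plaque protein, had log2 fold changes of 4.23 (SE 0.34) and 4.19 (SE 0.34), Dst, which links keratin to hemidesmosomes, 3.33 and 2.87, and Sfn, a 14-3-3 protein, 2.81 and 2.53, in BCAM HI and BCAM LO. The 1 lower gene was Pkp2 in both. Pkp1 had only 57 counts over DIFFERENTIATED EPCS, so the size of its differences rests on few counts there.

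Of 47 other keratin genes, 8 were tested. Between BCAM HI and BCAM LO, the basal keratins Krt14 (log2 fold change 1.98, SE 0.31, adjusted p = 3.44e-04) and Krt5 (0.84, SE 0.24, adjusted p = 0.0344) were higher in BCAM HI and Krt80 was lower (-1.96, SE 0.38, adjusted p = 0.00139), by edgeR's quasi-likelihood test. Markers of other airway cells moved in the same comparison as the 3 called keratins: 6 of 14 secretory genes and 9 of 14 tested ciliated genes were lower in BCAM HI and none was higher, where 4.59% of all genes were called lower. Leaving out DIFFERENTIATED EPCS replicates 6 and 7 gave 10 secretory genes called lower. Of 7 tested leukocyte genes 1 was called lower, Lyz2 (-3.63, SE 0.53, adjusted p = 2.29e-04, edgeR), at 38.7 to 289 TPM in BCAM HI and 336 to 1477 in BCAM LO, and none higher. The 14 secretory genes summed to 25324 to 44136 TPM in BCAM HI and 28276 to 99006 in BCAM LO, with no gene at 0. The 15 ciliated genes summed to 411 to 881 and 742 to 1141 TPM, with Foxj1 at a median of 0.606 and 1.14. Their part in the keratin differences was not tested.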

How the data were processed

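RNA of 24 libraries was analysed from 1 deposited table each. Per the file headers, the authors' tables give each transcript's length, effective length, estimated count and TPM, and per the submitters' processing notes kallisto (46.1), Picard and build GRCm39 were used, with no role stated. The deposited estimated counts carry no normalization. The authors' TPM are per transcript length and have an equal total in every library. Transcript identifiers were matched to GENCODE M21 (116374 of 117497; the rest held 0.317% to 0.594% of counts and were left out), and both units were summed per gene, the counts then rounded. Counting is not stated to use strand, and genes of opposite strand that overlap Krt6a, Krt7 and Krt8 were not among the genes in the files. Reads were amplified and carry no molecular identifiers, so counting error understates the error of a level.

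Groups were compared with edgeR's quasi-likelihood test (edgeR 4.0.16, R 4.3.3, robust fit) with TMM factors and edgeR's filter on low counts, in 1 fit over all libraries with a mean per group and batch as covariate, and genes were called at a Benjamini-Hochberg adjusted p under 0.05 over all 12211 genes tested. The standard error was taken as the size of the log2 fold change over the root of the F statistic. Batch effects were tested in a second fit with 1 mean for each batch of each group. Ratios used a pseudocount of 1 TPM and all 5040 splits within batch, and correlations all 720 permutations within batch. Tested on simulated data for BCAM HI against BCAM LO (11985 genes), the fit recovered 67% of 100 genes changed 2-fold and 94% of 100 changed 4-fold, with 3 false calls.

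All 8 keratins are named throughout. From each further list, up to 3 genes per comparison were named, those with the largest absolute log2 fold change among called genes with a mean of at least 10 CPM in 1 of the groups compared, and for likeness the 3 genes with the highest r. Ppl, Foxj1, Bcam and the defining markers given as levels were named beside that rule. The 8 genes and the lists were chosen with earlier results of these data known. Lists of tuft, ionocyte, neuroendocrine, immune, fibroblast, endothelial, smooth muscle, chondrocyte and erythrocyte genes were summed to describe the libraries. Of these, only the immune list is also given with its calls. Alternatives were DESeq2 size factors and Wald test (DESeq2 1.42.0), limma (3.58.1) on log2 TPM with pseudocounts of 0.1 and 1, no filter, no batch term, the replicate number as a block, transcript length offsets, each batch alone, only the groups compared, Krt6a with Krt6b, and leaving out each library.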

Additional observations from a re-analysis of the deposited data

Results flagged for a closer look

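In 33 sets of 8 libraries (levels and ratios of the keratins by group), 2 held a library far from the other 7, and chance alone marks about 1 in 20 sets. Krt4 in BCAM HI replicate 8 was at 364 TPM, above the 143 to 227 of the other 7 libraries of its group. The ratio of Krt4 to Krt13 in BCAM HI replicate 6 was 104, since Krt13 was at 1.98 TPM in that library.

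Of 24 changes of a keratin's group difference between the batches, 9 passed edgeR's quasi-likelihood test. For BCAM HI against DIFFERENTIATED EPCS the log2 fold change moved up from batch 1 to batch 2 by 2.59 for Krt4 (adjusted p = 0.00124), 0.87 for Krt8 (adjusted p = 0.0295), 1.32 for Krt18 (adjusted p = 9.30e-04), 1.503 for Krt19 (adjusted p = 2.85e-04) and 3.19 for Krt23 (adjusted p = 0.00216). For BCAM LO against DIFFERENTIATED EPCS it moved up by 1.54 for Krt4 (adjusted p = 0.0371), 1.27 for Krt18 (adjusted p = 0.00111), 1.54 for Krt19 (adjusted p = 1.59e-04) and 2.04 for Krt23 (adjusted p = 0.0307). Without DIFFERENTIATED EPCS replicates 6 and 7, which leaves replicate 8 as the only batch 2 library of that group, all 9 were smaller. Not all of them passed. For BCAM HI they were 1.64 for Krt4, 0.39 for Krt8, 0.91 for Krt18, 0.80 for Krt19 and 1.996 for Krt23. For BCAM LO they were 0.58 for Krt4, 0.86 for Krt18, 0.84 for Krt19 and 0.85 for Krt23. Both sets rest on the same DIFFERENTIATED EPCS libraries, in which secretory and thyroid marker sums also differed between the batches.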

How the results depend on the processing

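Over settings other than leaving out 1 library, 212 of 289 fold changes of single keratins kept their direction and their side of the threshold, 31 lost a call, 28 gained one and 18 turned sign. Over leave-one-out settings 549 of 576 kept both. The genes called between BCAM HI and BCAM LO were 545 with no batch term, 568 with transcript length offsets, 543 in batch 2 alone and 1297 with only the groups compared, against 857. Those between BCAM HI and DIFFERENTIATED EPCS were 7688 and 7713 with limma on log2(TPM + 0.1) and log2(TPM + 1), against 5044, and those between BCAM LO and DIFFERENTIATED EPCS were 2221 in batch 2 alone, against 4086. Keratins called between BCAM HI and BCAM LO were 7 in batch 1 alone, 0 in batch 2 alone, 6 with only the groups compared and 6 without DIFFERENTIATED EPCS replicates 6 and 7 (an alternative chosen after seeing the data, as coding transcripts alone below), and 2 to 5 with 1 library left out. In batch 2 alone they were 3 between BCAM HI and DIFFERENTIATED EPCS and 2 between BCAM LO and DIFFERENTIATED EPCS. With no filter on low counts the batch changes called were 1 for BCAM HI against BCAM LO and 2 for BCAM LO against DIFFERENTIATED EPCS, and the keratins that differed between batches were 2 in BCAM HI and 4 in BCAM LO. With 1 library left out these batch changes were 0 to 2 and 2 to 5. Without DIFFERENTIATED EPCS replicates 6 and 7 the batch changes called were 2, 3 and 1 in the 3 comparisons, and the keratins that differed between batches were 3, 5 and 3 in BCAM HI, BCAM LO and DIFFERENTIATED EPCS.

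Krt4 between BCAM HI and DIFFERENTIATED EPCS turned to -0.24 with no batch term, -0.83 in batch 1 alone, -0.42 without DIFFERENTIATED EPCS replicates 6 and 7, and ran from -0.183 to 0.197 with 1 library left out (-0.183, -0.136 and -0.150 without BCAM HI replicate 8, DIFFERENTIATED EPCS replicate 6 and replicate 7). Krt19 there turned to -0.042, -0.36 and -0.22 under the first 3, and ran from -0.029 (without DIFFERENTIATED EPCS replicate 7) to 0.217 with 1 library left out, -0.0097 without DIFFERENTIATED EPCS replicate 6. In batch 2 alone, Krt13, Krt6a and Krt7 turned to 0.092, 0.62 and 0.22 between BCAM HI and BCAM LO, and Krt8, Krt18 and Krt23 to 0.16, 0.18 and 0.88 between BCAM LO and DIFFERENTIATED EPCS. With limma on log2(TPM + 0.1) and log2(TPM + 1), Krt7 turned to 0.052 and 0.051 between BCAM HI and BCAM LO, and between BCAM LO and DIFFERENTIATED EPCS Krt8 turned to 0.32 and 0.32 and Krt23 to 0.35 and 0.32.

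The Krt8 to Krt18 difference between BCAM LO and DIFFERENTIATED EPCS lost its call with no batch strata (0.40, exact permutation adjusted p = 0.284), in batch 2 alone (0.030) and without DIFFERENTIATED EPCS replicates 6 and 7 (0.34), and ran from 0.32 to 0.49 with 1 library left out. Between BCAM HI and DIFFERENTIATED EPCS it gained a call in batch 1 alone (0.37), turned to -0.052 in batch 2 alone and ran from 0.15 to 0.31 with 1 left out. The Krt4 to Krt13 difference between BCAM LO and DIFFERENTIATED EPCS gained a call with a pseudocount of 0.1 TPM (-2.04), with CPM (-1.75), in batch 1 alone (-2.02) and with coding transcripts only (-1.49), turned to 0.031 in batch 2 alone, and ran from -1.53 to -0.92 with 1 left out. Between BCAM HI and BCAM LO it gained a call in batch 1 alone (0.90) and turned to -0.25 in batch 2 alone. The Krt7 to Krt19 difference turned in batch 1 alone to -0.017 between BCAM HI and BCAM LO and to 0.45 between BCAM LO and DIFFERENTIATED EPCS. Between BCAM HI and DIFFERENTIATED EPCS it was 0.43 in batch 1 alone, -0.20 in batch 2 alone, -0.019 with coding transcripts only and 0.36 without DIFFERENTIATED EPCS replicates 6 and 7. Between BCAM LO and DIFFERENTIATED EPCS it turned to 0.11 without those replicates and ran from -0.12 to 0.039 with 1 left out (0.033 and 0.039 without BCAM LO replicate 6 and replicate 7, 0.021 and 2.37e-05 without DIFFERENTIATED EPCS replicate 6 and replicate 7). Without subtracting batch means, r of Krt4 with Krt13 was 0.94 in BCAM LO and 0.75 in DIFFERENTIATED EPCS, both called, and r of Krt8 with Krt18 in BCAM LO was 0.25. Without DIFFERENTIATED EPCS replicates 6 and 7, r in that group turned to -0.53 for Krt4 with Krt13 and lost its call for Krt7 with Krt19 (0.83). The cause of these changes was not tested.

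Same-numbered libraries had correlated deviations above 0.1 in 7 of 24 pairs (range over all pairs 0.03 to 0.18), and in 18 of 24 before batch means were subtracted. This is not every pair, so the numbers were not taken to pair the samples in the main tests. In 23 of 24 pairs, however, the library of the first group correlated best with its own number among the second group's libraries of its batch. Same-numbered libraries thus shared variation that the main tests leave out. With the replicate block, 864, 5129 and 4136 genes and 3, 6 and 5 keratins were called in the 3 comparisons. Between BCAM HI and BCAM LO, Krt23 was then not called (-1.66, adjusted p = 0.0626) and Krt13 was (-2.15, adjusted p = 0.0139), against DIFFERENTIATED EPCS Krt13 in BCAM HI was called (1.41, adjusted p = 0.0465) and Krt19 in BCAM LO was not (0.60, adjusted p = 0.0742), and Krt8 to Krt18 between BCAM LO and DIFFERENTIATED EPCS lost its call (0.40, exact sign-flip permutation adjusted p = 0.211). Depth limits Krt6a and Krt13 most, with 21 and 176 counts over DIFFERENTIATED EPCS.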
